A study of Homo sapiens with 74 samples.

Results

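The 7 genes described here, HMGCS1, IDI1, FDFT1, SQLE, LSS, CYP51A1 and DHCR7, encode enzymes of cholesterol synthesis. They were chosen by name from the 28131 genes of the deposited count tables and are followed through all 5 groups of RNA-seq libraries. All 7 act in synthesis and none in uptake, so receptors and carriers of cholesterol are given from a separate list further on. The study asked how the DOT1L complex takes part in transcription, and 13 of its 74 samples are RNA-seq libraries of the human erythroleukaemia lines K562 and HEL, which are established cell lines. DOT1L is a histone methyltransferase, and ENL, whose gene symbol is MLLT1, is a reader protein found in its complex. K562 was labelled wild type in the controls, DOT1L-/- in the DOT1L knockout (KO) and ENL-/- in the ENL KO, and HEL was labelled control or DOT1L knockdown (KD). The labels do not say whether a knockout is a clone or a pool, how the knockdown was made, or how long the cells had been depleted. K562 was grown in DMEM and HEL in RPMI-1640, both with fetal bovine serum, so the medium goes together with the cell line.

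Cholesterol is built from acetyl-CoA through mevalonate, isoprenoid diphosphates, squalene and lanosterol. Its genes are a textbook case of shared control: when membranes of the endoplasmic reticulum hold little sterol, SCAP carries the transcription factor SREBP2 to the Golgi, where proteases release its active part, and INSIG proteins hold the complex back when sterol is plentiful. Cells also take up cholesterol in lipoproteins through surface receptors. SREBP2 binds sterol regulatory elements, often beside sites for NF-Y, which reads CCAAT, and Sp1.

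RefSeq promoter windows on GRCh38.p14 matched 5 of the 7 genes, with 9 start sites between them, and none of those for SQLE or FDFT1. The 250 bases before each start were searched on both strands. CCAAT was present upstream of 4 of the 5 genes (5 of 9 windows), beside 32% of all 35116 windows, and the Sp1 motif GGGCGG upstream of 5 of 5 genes (8 of 9 windows), beside 42.6%. The element core TCACNCCAC was in 0 of 9 windows exactly, beside 0.883% of all windows, and with 1 mismatch outside N in 3 of 9 windows, those of IDI1 and DHCR7, beside 20.9%. A match is a description of letters and not evidence of binding, and the absence of a match says only that these letters are not in the window. The 3 stretches below are shown because they are the parts of these windows that lie in no listed exon and hold CCAAT. SREBF2, which encodes SREBP2, follows as the gene of the pathway lists with an exact core in its window. Each is written 5′ to 3′ on the gene's strand, and capitals mark CCAAT, its complement ATTGG, or the element core.
HMGCS1 (chr5:43313513-43313662, minus strand, up to 101 bases before the start): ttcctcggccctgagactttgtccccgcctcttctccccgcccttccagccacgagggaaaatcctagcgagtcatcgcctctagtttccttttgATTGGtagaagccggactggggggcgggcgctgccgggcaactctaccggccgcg
DHCR7 (chr11:71448432-71448643, minus strand, up to 39 bases before the start): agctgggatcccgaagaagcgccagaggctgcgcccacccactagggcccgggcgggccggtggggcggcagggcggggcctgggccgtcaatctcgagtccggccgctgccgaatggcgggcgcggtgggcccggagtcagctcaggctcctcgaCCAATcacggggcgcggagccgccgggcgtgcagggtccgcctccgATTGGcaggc
LSS (chr21:46228825-46229024, minus strand, up to 51 bases before the start): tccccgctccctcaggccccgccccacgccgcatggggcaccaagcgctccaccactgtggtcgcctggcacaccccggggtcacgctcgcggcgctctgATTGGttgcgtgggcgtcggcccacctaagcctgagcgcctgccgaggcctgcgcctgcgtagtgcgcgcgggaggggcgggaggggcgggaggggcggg
SREBF2 (chr22:41832957-41832995, plus strand, core at 133 bases before the start): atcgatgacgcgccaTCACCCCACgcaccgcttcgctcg

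The libraries and their labels were checked first. Of the 13 columns, the second and the third K562 control were identical gene by gene, differed by less than sampling noise and were counted as 1 sample. The groups thus hold 2 controls, 3 libraries with DOT1L KO and 3 with ENL KO in K562, and 2 controls and 2 libraries with DOT1L KD in HEL. Total counts ran from 15404944 to 29236703 fragments in K562 and from 12151495 to 12811688 reads in HEL. Levels are given as CPM, counts scaled to a common library size with TMM factors within each cell line, and as CPM per kilobase of exon where genes are compared with each other. DOT1L lay at 256 to 269.8 CPM in the K562 controls and 176 to 186 CPM in the DOT1L KO, and at 87.4 to 97.5 CPM in the HEL controls and 29.1 to 30.0 CPM in the KD. MLLT1 lay at 214 to 219 CPM in the K562 controls and 153 to 157 CPM in the ENL KO, so each targeted transcript was still counted in its knockout. All 10 erythroid markers checked, among them GATA1, KLF1 and the fetal globin genes, had at least 1 CPM in every library. Of 7 markers of other cell types, MS4A1 was at 0 in all libraries, CDH5 at 0 in K562 and CD3E at 0 in HEL, while EPCAM reached 121 CPM and COL1A1 120.4 CPM in K562. The labels do not say that libraries of a group came from separate cultures, so p-values measure only the spread between these libraries. The ENL KO labels name no sequencing lane while those of the other K562 groups do, and a batch cannot be told apart from loss of ENL.

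All 7 enzymes fell in the K562 DOT1L KO, and all 7 fell in the ENL KO, where the decrease was smaller for 6 of them. In HEL, 6 of 7 fell after DOT1L knockdown and LSS did not pass the test. The summed level of the 7 transcripts was 2213 to 2214 CPM in the K562 controls, 1197 to 1272 CPM in the DOT1L KO and 1541 to 1546 CPM in the ENL KO. In HEL it was 2421 to 2446 CPM in the controls and 1843 to 1856 CPM in the KD. Decreases are common in these comparisons: an adjusted p under 0.05 with a lower level (edgeR's quasi-likelihood test, Benjamini-Hochberg over all genes tested) was reached by 24.2% of tested genes in the DOT1L KO, 22.2% in the ENL KO, 28.3% for DOT1L KO against ENL KO and 28% in HEL. A higher level past the same test was reached by 26.9%, 18.8%, 31.8% and 27% of tested genes in the same order. The median log2 fold change of the 7 enzymes was -0.91 after DOT1L KO, -0.42 after ENL KO and -0.44 in HEL, while the median over all tested genes was 0.01, 0.00 and 0.01. In bulk RNA, fewer cells of a type and less RNA per cell cannot be told apart. The knockouts share their control libraries, so their values are set side by side and not counted as separate support.

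**Figure D1:**
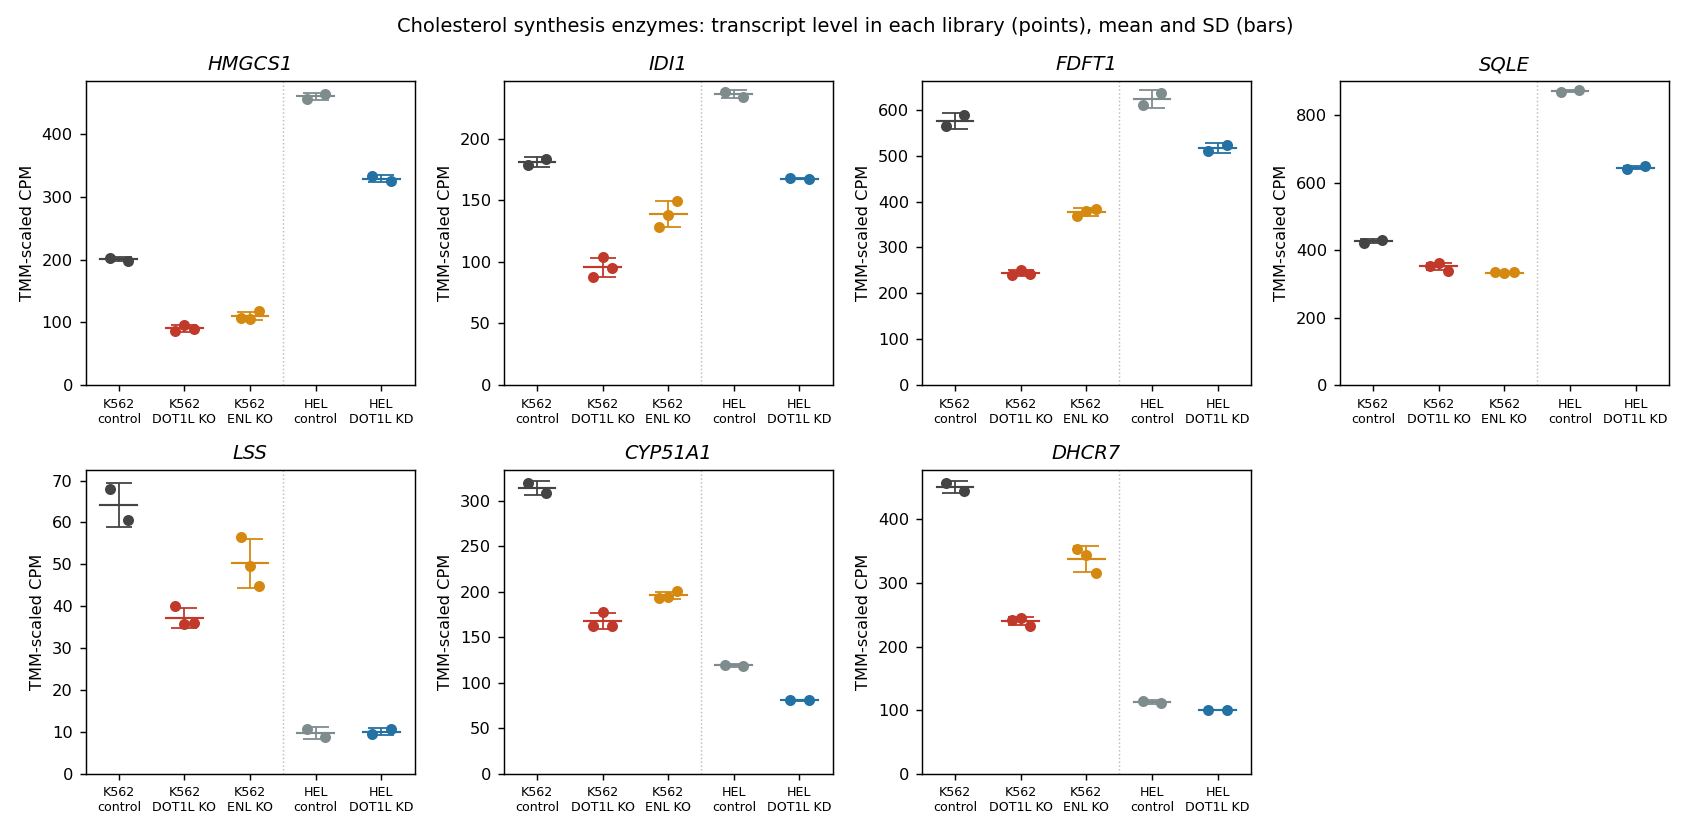
TMM-scaled CPM (vertical axis, linear, from 0) of each enzyme in each library (points) of the 5 groups, with the group mean (long bar) and SD (capped bar). In K562 every knockout point lies below both control points for all 7 genes, and in HEL only LSS has overlapping groups.

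HMGCS1 (chromosome 5, 43287470 to 43313512, minus strand) encodes the cytosolic synthase that makes HMG-CoA, a precursor of mevalonate. It was at 203 and 198 CPM in the K562 controls, at 85.5, 95.8 and 90.1 CPM in the DOT1L KO, and at 107, 105 and 118 CPM in the ENL KO. The 3 groups did not overlap, and the DOT1L KO was the lowest. The log2 fold change from the control was -1.15 (SE 0.065; by edgeR, adjusted p 7.40e-09) in the DOT1L KO, a level 45.1% of the control. In the ENL KO it was -0.87 (SE 0.065; by edgeR, adjusted p 2.05e-07), the largest decrease of the 7 in that knockout. HEL had 457 and 464 CPM in the controls and 333 and 325 CPM in the KD, a log2 fold change of -0.48 (SE 0.031; by edgeR, adjusted p 3.18e-19).

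IDI1 (chromosome 10, 1039420 to 1056716, minus strand) encodes isopentenyl diphosphate isomerase, which supplies the allylic unit for chain building. Its levels were 178 and 184 CPM in the K562 controls, 87.8, 104 and 95.0 CPM in the DOT1L KO, and 128, 138 and 149.6 CPM in the ENL KO. Again the groups did not overlap. The decrease was -0.92 (SE 0.076; by edgeR, adjusted p 3.08e-07) in the DOT1L KO and -0.39 (SE 0.076; by edgeR, adjusted p 0.00115) in the ENL KO. In HEL it went from 238 and 234 CPM to 168 and 167 CPM, a log2 fold change of -0.50 (SE 0.037; by edgeR, adjusted p 6.37e-17). The gene shares 173 of its 4071 exonic bases with IDI2-AS1 on the other strand, which had 1 count in the first control.

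FDFT1 (chromosome 8, 11795573 to 11839309, plus strand) encodes squalene synthase, the enzyme that commits farnesyl diphosphate to sterols. The K562 controls had 564 and 589 CPM, the DOT1L KO 239, 251 and 242 CPM, and the ENL KO 368, 379 and 384 CPM. It showed the largest decrease of the 7 in the DOT1L KO, to 42.4% of the control, with a log2 fold change of -1.24 (SE 0.050; by edgeR, adjusted p 3.23e-10). The ENL KO was between, at -0.61 (SE 0.050; by edgeR, adjusted p 4.71e-07). HEL moved less, from 610.3 and 637 CPM to 509.6 and 524 CPM, or -0.27 (SE 0.030; by edgeR, adjusted p 3.60e-11).

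SQLE (chromosome 8, 124998478 to 125022283, plus strand) encodes squalene epoxidase, a rate-limiting oxygen-dependent step after squalene. It stood apart from the other 6 in the DOT1L KO of K562. Its levels were 422 and 430 CPM in the controls, 354, 362 and 339 CPM in the DOT1L KO and 335, 331 and 334 CPM in the ENL KO. The DOT1L KO decrease of -0.28 (SE 0.049; by edgeR, adjusted p 0.000369) was the smallest of the 7, to 82.5% of the control. The ENL KO decrease was -0.36 (SE 0.049; by edgeR, adjusted p 6.75e-05), between those of LSS (-0.35) and IDI1 (-0.39). SQLE was the most abundant of the 7 transcripts in HEL, at 870.4 and 874 CPM in the controls and 641 and 648 CPM in the KD, a log2 fold change of -0.44 (SE 0.028; by edgeR, adjusted p 3.22e-19).

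LSS (chromosome 21, 46188446 to 46228824, minus strand) encodes lanosterol synthase, which closes the rings of the sterol skeleton. The tables list exons of LSS on a second, alternate contig as well, 4007 of 8773 listed bases, so its level per kilobase is understated, and whether reads that match both copies were dropped is not stated. It was at 68.0 and 60.5 CPM in the K562 controls, 40.0, 35.7 and 35.9 CPM in the DOT1L KO, and 56.4, 49.7 and 44.7 CPM in the ENL KO. The decrease was -0.79 (SE 0.094; by edgeR, adjusted p 1.13e-05) in the DOT1L KO. In the ENL KO it was -0.35 (SE 0.094; by edgeR, adjusted p 0.00912), and without control 1 it was -0.26 with an edgeR adjusted p of 0.126, so that call rested on this library. HEL had 10.8 and 8.81 CPM in the controls and 9.46 and 10.6 CPM in the KD, 111 to 135 reads a library. These groups overlapped, and the change of 0.03 (SE 0.14; by edgeR, adjusted p 0.865) did not pass the test.

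CYP51A1 (chromosome 7, 92112149 to 92134745, minus strand) encodes lanosterol demethylase, a cytochrome P450. The controls of K562 had 319.7 and 308 CPM, the DOT1L KO 163, 178 and 162 CPM, and the ENL KO 193, 194 and 201 CPM. Both knockouts lay well under the controls, with log2 fold changes of -0.90 (SE 0.056; by edgeR, adjusted p 1.88e-08) and -0.68 (SE 0.056; by edgeR, adjusted p 5.21e-07). In HEL it showed the largest decrease of the 7, from 120.0 and 118 CPM to 81.4 and 80.5 CPM, or -0.56 (SE 0.047; by edgeR, adjusted p 6.06e-15). The antisense gene CYP51A1-AS1 shares 80 of its 3288 exonic bases and had 9 counts in the first K562 control.

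DHCR7 (chromosome 11, 71434411 to 71448431, minus strand) encodes the reductase that turns dehydrocholesterol into cholesterol at the end of the pathway. Levels were 457 and 444 CPM in the K562 controls, 242, 246 and 233 CPM in the DOT1L KO, and 354, 344 and 316 CPM in the ENL KO. The decrease was -0.91 (SE 0.057; by edgeR, adjusted p 2.14e-08) in the DOT1L KO and -0.42 (SE 0.057; by edgeR, adjusted p 6.35e-05) in the ENL KO. In HEL it was at 115 and 111 CPM in the controls and 101 CPM in both KD libraries. That is a log2 fold change of -0.16 (SE 0.045; by edgeR, adjusted p 0.00211), the smallest of the 6 decreases in HEL, and with upper-quartile scaling it was -0.09 with an edgeR adjusted p of 0.0910. The same scaling moved the share of increases among all called genes in HEL from 49.1% to 61.4%, and the other 5 decreases passed the test under it.

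**Figure D2:**
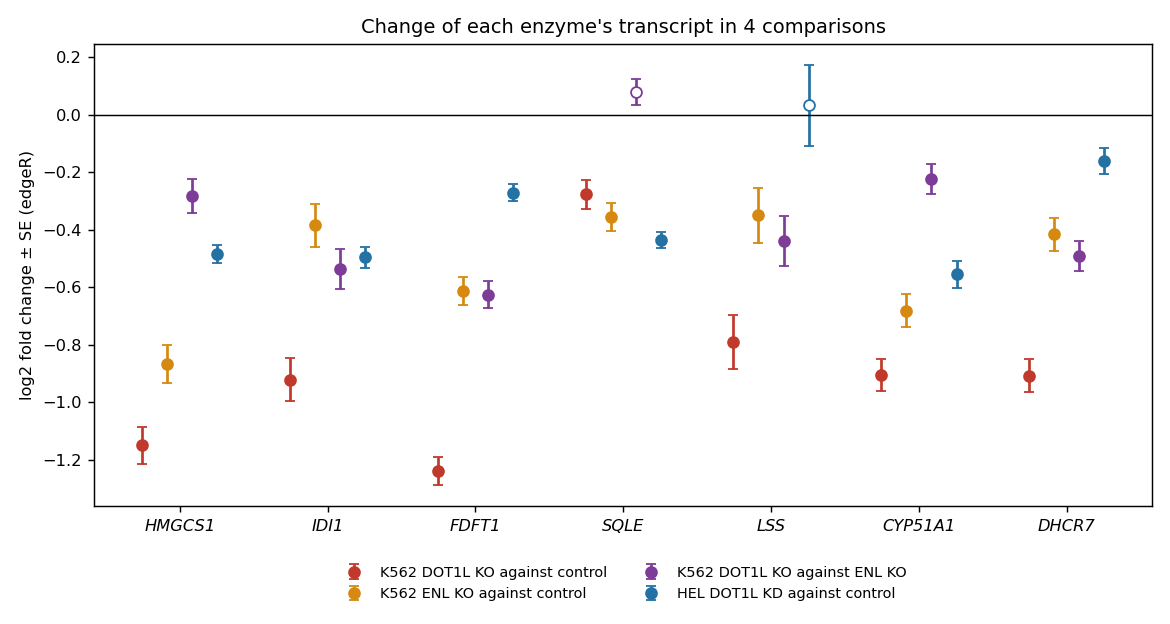
Log2 fold change with its SE (vertical axis) of the 7 enzymes (horizontal axis) in 4 comparisons, from edgeR. Filled points passed an adjusted p of 0.05 and open points did not: SQLE for DOT1L KO against ENL KO, at 0.08, and LSS in HEL, at 0.03.

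The knockouts were then compared directly, within the fit of all K562 groups. Of the 7 enzymes, 6 were lower in the DOT1L KO than in the ENL KO. The difference was largest for FDFT1, at -0.63 (SE 0.046; by edgeR, adjusted p 5.35e-08), followed by IDI1 at -0.54, DHCR7 at -0.49, LSS at -0.44, HMGCS1 at -0.28 and CYP51A1 at -0.22 (SE 0.051; by edgeR, adjusted p 0.00195). For each of these 6, every DOT1L KO library lay below every ENL KO library. SQLE went the other way, with all DOT1L KO libraries above the ENL KO, a difference of 0.08 (SE 0.045; by edgeR, adjusted p 0.150) that did not pass the test. It passed with upper-quartile scaling (0.12, edgeR adjusted p 0.0346) and with library-size scaling (0.13, edgeR adjusted p 0.0129).

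Between the cell lines, the enzymes fell by different amounts. In a joint fit of the 9 control and DOT1L-depleted libraries, the interaction term (the HEL log2 change minus the K562 change) passed the test for 6 of 7 enzymes, and all 6 had the smaller decrease in HEL. Of all tested genes, 38.9% passed this test, 19.8% with the higher log2 change in HEL and 19.1% with the lower. FDFT1 had the largest difference, 0.99 (SE 0.067; by edgeR, adjusted p 1.91e-10), and CYP51A1 the smallest of those that passed, 0.37 (SE 0.081; by edgeR, adjusted p 0.000967). SQLE had the opposite sign, -0.14 (SE 0.066; by edgeR, adjusted p 0.0988), which did not pass. It passed without DOT1L KO 3, at -0.19 with an edgeR adjusted p of 0.0151, and with library-size scaling, at -0.17 with an edgeR adjusted p of 0.0317. Cell line, knockout against knockdown, the culture medium and fragment against read counting cannot be told apart in this difference. The joint fit used 1 spread per gene for both lines, while the biological coefficient of variation was 6.34% in K562 and 1.83% in HEL.

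**Figure D3:**
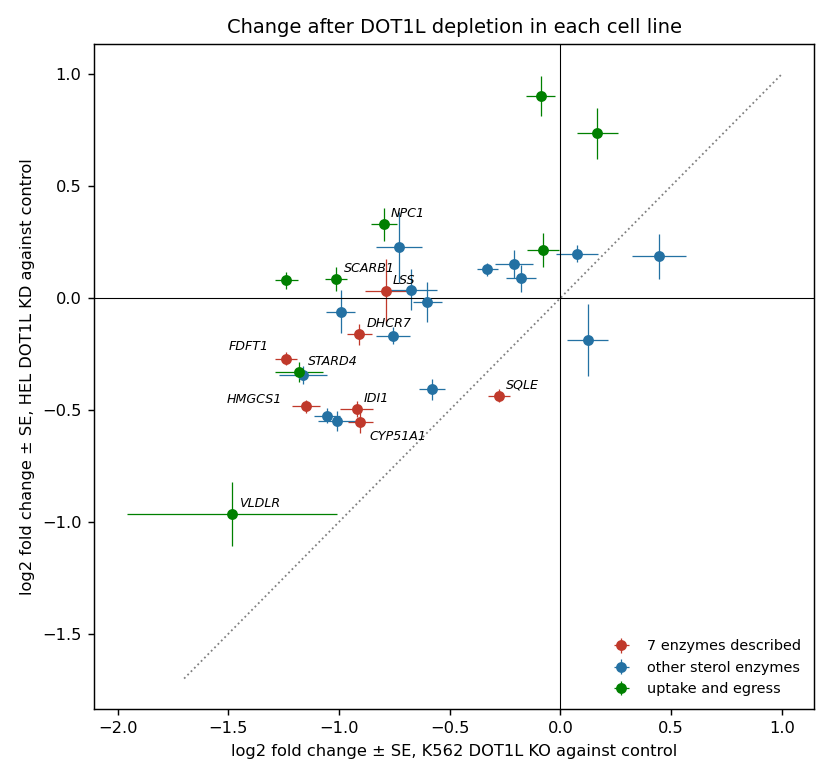
Log2 fold change with its SE after DOT1L depletion in K562 (horizontal axis, KO against control) and in HEL (vertical axis, KD against control) for the 7 enzymes (red), other sterol enzymes (blue) and uptake and egress genes (green). The dotted line marks equal change: of the 7 enzymes only SQLE lies below it. LIPA, with a change over 2, is not drawn.

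Levels per kilobase ordered the 7 transcripts differently in the cell lines. In the K562 controls the order was DHCR7 (169 ± 3.51 CPM per kilobase, SD, n = 2), SQLE (143 ± 1.86), FDFT1 (131 ± 4.05), CYP51A1 (95.5 ± 2.41), IDI1 (44.5 ± 0.975), HMGCS1 (35.0 ± 0.612) and LSS (7.32 ± 0.600). The ENL KO kept that order. In the DOT1L KO, SQLE came before DHCR7, at 118 ± 3.80 and 90.1 ± 2.47 CPM per kilobase (SD, n = 3). HEL controls began with SQLE (292 ± 0.771, SD, n = 2) and FDFT1 (142 ± 4.29), with HMGCS1 at 80.1 ± 0.941, DHCR7 at rank 5 with 42.3 ± 0.994 and LSS last at 1.12 ± 0.159, and the KD had the same order. In no group did the ranges of neighbours in the order overlap. K562 and HEL were normalised separately, so levels are not tested between them.

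The 15 other enzymes of the mevalonate and sterol pathway were mostly lower in the DOT1L KO, with a median log2 fold change of -0.60. Of these, 11 fell, 1 rose and 3 did not pass the test, beside 24.2% lower and 26.9% higher over all tested genes. Decreases in the DOT1L KO included MSMO1 at -1.16, SC5D at -1.01, MVK at -0.99, FDPS at -0.76, HSD17B7 at -0.73, MVD at -0.67, NSDHL at -0.60 and ACAT2 at -0.58. PMVK, the kinase that follows MVK, rose by 0.45. In the ENL KO 7 fell, 1 rose and 7 did not pass, beside 22.2% lower and 18.8% higher over all tested genes. MSMO1 at -1.29 and SC5D at -0.50, both enzymes of late sterol steps, fell most of the 15 there. HEL had 5 lower, 3 higher and 7 not past the test, with a median of -0.02. Over all tested genes in HEL 28% fell and 27% rose. SC5D was among the 5 enzymes lower in HEL, at -0.55.

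In the DOT1L KO, where 24.2% of all tested genes fell and 26.9% rose, 5 of 9 SREBP-processing regulators fell and 4 did not pass. INSIG1, the sterol-sensitive anchor of SCAP and itself a target of the programme, was the largest: 716 and 783 CPM in the K562 controls, 284, 321 and 302 CPM in the DOT1L KO, and 347, 366 and 363 CPM in the ENL KO. Those are log2 fold changes of -1.31 (SE 0.061; by edgeR, adjusted p 1.24e-09) and -1.06 (SE 0.061; by edgeR, adjusted p 1.51e-08). INSIG2, its paralog, was at -0.64 in the DOT1L KO. SREBF2 changed little, from 338 and 347 CPM to 296 to 297 CPM in the DOT1L KO, or -0.21 (SE 0.048; by edgeR, adjusted p 0.00250), and its ENL KO value of -0.04 (SE 0.048; by edgeR, adjusted p 0.536) did not pass. The transcript level of SREBF2 does not report how much SREBP2 protein is processed, which these libraries did not measure. The ENL KO had 2 lower, 2 higher and 5 not past the test, near the 22.2% lower and 18.8% higher of all tested genes. In HEL 5 fell and 4 rose, beside 28% and 27% of all tested genes. INSIG1 was at -0.23, MBTPS2, a protease of the release step, at -0.59, and SREBF2 rose by 0.08 (SE 0.031; by edgeR, adjusted p 0.0205).

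Of 10 uptake and lysosomal egress genes, 6 fell, 1 rose and 3 did not pass in the DOT1L KO. Over all tested genes 24.2% fell and 26.9% rose. The 6 that fell included STARD4, a sterol carrier, at -1.18, SCARB1, a lipoprotein receptor, at -1.01 and NPC1, a lysosomal exporter, at -0.80. VLDLR, at 11 and 14 counts in the controls and 2 to 7 in the DOT1L KO, was called lower on few counts. LIPA, the lysosomal lipase of cholesteryl esters, rose from 0.325 and 0.284 CPM, which is 7 and 6 counts, to 3.86, 5.17 and 4.54 CPM in the DOT1L KO and 2.32, 2.19 and 2.21 CPM in the ENL KO. In the ENL KO 4 fell, 2 rose and 4 did not pass, beside 22.2% lower and 18.8% higher over all tested genes. SCARB1 was among the 4 that fell, at -0.57.

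In HEL, of 9 uptake and egress genes tested, 2 fell, 5 rose and 2 did not pass, beside 28% lower and 27% higher over all tested genes. NPC2, the lysosomal sterol carrier, rose by 0.74, while VLDLR was lower at -0.96.

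**Figure D4:**
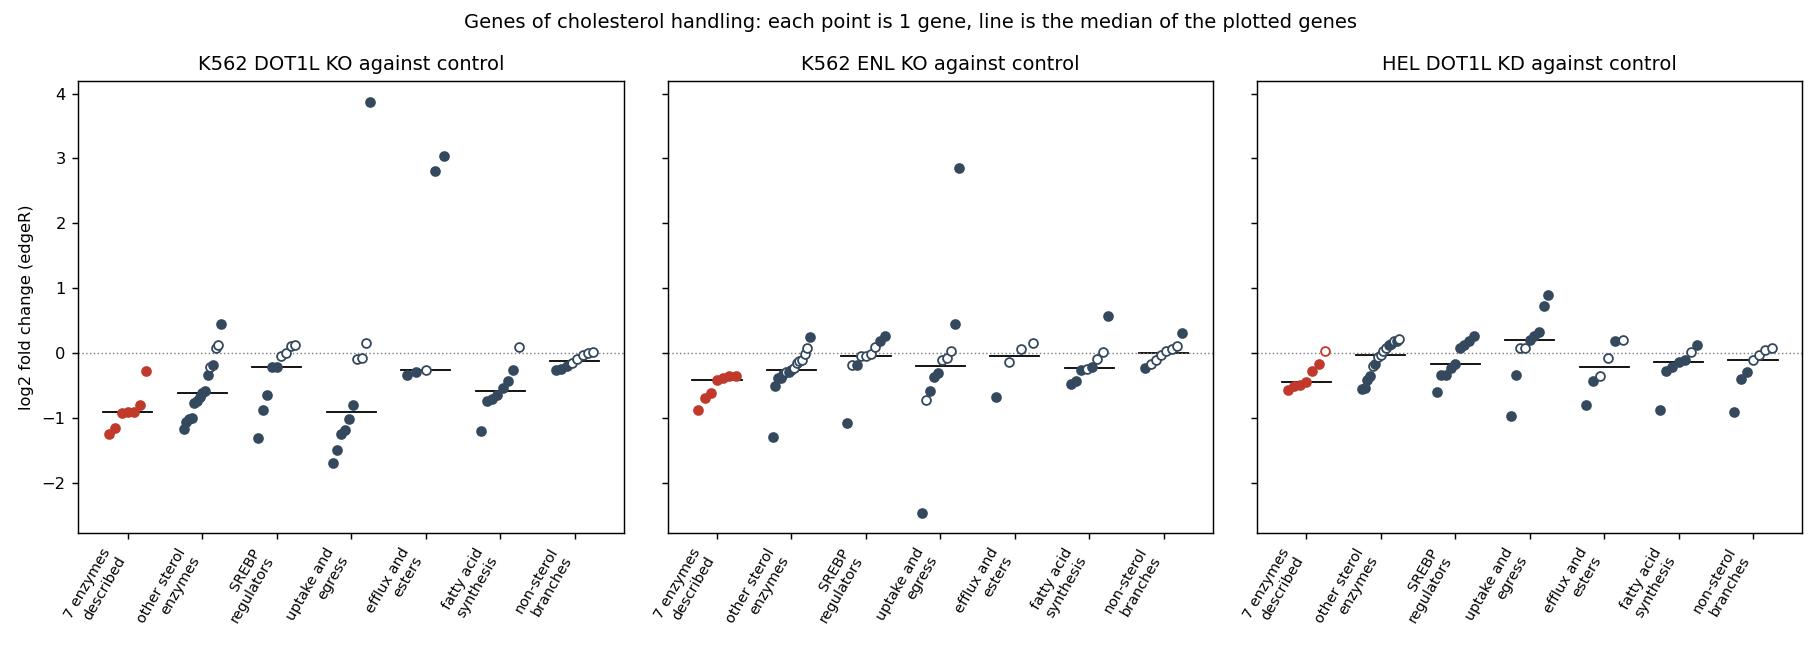
Log2 fold change (vertical axis) of each tested gene (points) of the 7 enzymes and 6 other lists (horizontal axis) in 3 comparisons with the control, filled where the edgeR adjusted p was under 0.05, with the median as a line. The 7 enzymes lie below 0 in both knockouts, while the uptake and egress list has a median of -0.91 in the DOT1L KO and 0.21 in HEL. ABCA1 in the ENL KO, with 1 or 2 counts a library, is left out of the plot and of its median.

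Genes of efflux, esterification and sterol sensing showed no common direction. In the DOT1L KO 2 of 5 tested fell and 2 rose, beside 24.2% lower and 26.9% higher over all tested genes. ABCA1, an exporter of cholesterol, rose from 0.372 and 0.331 CPM, which is 8 and 7 counts, to 2.54, 3.07 and 3.17 CPM, and it had only 1, 1 and 2 counts in the ENL KO. APOE, a lipoprotein component, rose by 2.81 (SE 0.10; by edgeR, adjusted p 1.27e-10) in the DOT1L KO and stood at 0.07 (SE 0.094; by edgeR, adjusted p 0.584) in the ENL KO. SOAT1, which esterifies cholesterol, was lower in the DOT1L KO (-0.29), in the ENL KO (-0.66) and in HEL (-0.79). ABCG1 had 0 counts in both K562 controls and 92.4 to 99.6 CPM in the HEL controls. In the ENL KO 2 of the 5 tested fell and 3 did not pass, beside 22.2% lower and 18.8% higher over all tested genes. In HEL 2 of 6 fell and 1 rose, beside 28% and 27% of all tested genes.

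The fatty acid genes of the SREBP programme fell with the sterol genes in the DOT1L KO, 7 of 8, with ACSS2 at -1.19, SCD at -0.73, FADS1 at -0.71, FASN at -0.63 and ACLY at -0.53. In the ENL KO 4 fell and 1 rose, which was FADS2 at 0.58. HEL had 5 of 7 lower and 1 higher, with FADS1 at -0.87 the largest. The 8 genes of the non-sterol branches, which make ubiquinone, dolichol and prenyl anchors, had 3 lower in the DOT1L KO with a median of -0.11, 1 lower and 1 higher in the ENL KO, and 3 of 7 lower in HEL with a median of -0.11. NUS1 of dolichol synthesis was at -0.90 in HEL. Across all 56 listed genes other than the 7 enzymes, 34 of 55 tested fell and 4 rose in the DOT1L KO. Beside these, 24.2% of all tested genes fell and 26.9% rose. In the ENL KO 20 of 55 fell and 7 rose, beside 22.2% and 18.8% of all tested genes. In HEL 22 of 53 fell and 14 rose, beside 28% and 27%, so the rises were near the share of all genes. The same shares stand beside the fatty acid and non-sterol counts.

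Compared directly with the ENL KO, the DOT1L KO was lower in 30 and higher in 11 of the 55 listed genes tested, beside 28.3% lower and 31.8% higher over all tested genes. Genes lower by at least 0.5 included STARD4 (-1.22), FADS2 (-0.82), FADS1 (-0.73), ACSS2 (-0.72), MVK (-0.68), NSDHL (-0.68), FASN (-0.55), SCD (-0.52) and SC5D (-0.50). Higher ones included PMVK (0.73), LIPA (1.02), APOE (2.74) and ABCA1, whose counts are given above. INSIG1 was at -0.24 and SREBF2 at -0.17, both past the test. MSMO1, at 0.12 (SE 0.10; by edgeR, adjusted p 0.316), did not pass, like SQLE among the 7 enzymes.

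For the interaction term, 29 of the 56 listed genes had the higher log2 change in HEL and 8 the lower by the edgeR test, beside 19.8% and 19.1% of all tested genes. INSIG1 was at 1.10, SREBF2 at 0.31, and among the other sterol enzymes HSD17B7 was at 0.97, MVK at 0.95, MSMO1 at 0.84, MVD at 0.73, FDPS at 0.61 and NSDHL at 0.60. Uptake genes past 0.5 included NPC1 at 1.14, SCARB1 at 1.12, STARD4 at 0.86 and NPC2 at 0.59. Others past 0.5 included ACSS2 (1.24), NR1H2 (0.55) and FASN (0.55). Those with the lower log2 change in HEL included LIPA (-3.59), APOE (-2.86), ABCA1 (-2.81), MBTPS2 (-0.70) and NUS1 (-0.63). ABCG1 was another, and no size is given because its K562 controls were at 0. Within HEL alone LIPA rose by 0.27, and APOE and ABCA1 did not pass the test.

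Erythroid markers moved beside these genes. Their summed level was 6910 to 7451 CPM in the K562 controls, 10550 to 11120 CPM in the DOT1L KO and 8865 to 9089 CPM in the ENL KO, and in HEL 6809 to 6934 CPM in the controls and 9366 to 10040 CPM in the KD. In the DOT1L KO 9 of 10 rose and 1 fell, in the ENL KO 7 rose and 1 fell, and in HEL 8 rose and 2 did not pass. Over all tested genes 26.9%, 18.8% and 27% rose. The marker lower in both knockouts was TFRC, the transferrin receptor (-0.27 and -0.26). In HEL TFRC rose by 0.41 (SE 0.027; by edgeR, adjusted p 6.65e-19). The markers of other cell types summed to 133 to 135 CPM in the K562 controls, 197 to 208 CPM in the DOT1L KO and 107 to 114 CPM in the ENL KO, and to at most 5.35 CPM in HEL. COL1A1 went from 10.1 and 11.7 CPM to 114 to 120.4 CPM in the DOT1L KO. The part of these markers in the decreases of the enzymes was not tested.

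The 7 enzymes varied together over the 12 distinct libraries. After centring log2 CPM within each cell line, the correlation of each enzyme with the mean of the 7 was 0.98 for FDFT1 and HMGCS1, 0.97 for CYP51A1, 0.96 for DHCR7 and IDI1, 0.85 for LSS and 0.73 for SQLE. Each enzyme is part of that mean and the libraries fall into 5 groups, so these values describe the group differences above. Of 8981 other genes with at least 5 CPM on average in each line, the 5 most like the mean were CTSC (r 0.99), PDLIM5 (0.99), LOC100129034 (0.99), PIP4K2A (0.98) and P4HA1 (0.98). Their log2 fold changes after DOT1L KO, ENL KO and HEL KD were -0.88, -0.47 and -0.26 for CTSC and -1.40, -0.79 and -0.68 for PDLIM5. LOC100129034 had -3.31, -1.79 and -0.63, PIP4K2A -0.63, -0.36 and -0.29, and P4HA1 -1.39, -0.70 and -0.25. Among the listed pathway genes SC5D had rank 7 by the same measure, INSIG1 rank 50 and SREBF2 rank 1106 with an r of 0.68.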

How the data were processed

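The authors deposited whole-number counts per gene, as fragment counts for K562 and read counts for HEL per the file headers, with exon positions and exonic length. Per the labels' protocols, libraries were made from polyadenylated RNA with the dUTP method. The submitters' processing notes name fastp 0.13.1, Bowtie2 2.3.4.1, HISAT2 2.1.0, featureCounts 1.6.1 and deepTools, with builds hg38 and hg19, for the series without saying which made these tables. Positions in the tables lie on hg38, and whether counting used strand is not given in the sources used here. The other 61 samples were not analysed here.

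Groups follow the labels. K562 control columns 2 and 3 were identical and entered once, which left 8 libraries in place of the 9 planned. The chi-square over its degrees of freedom was 4.24 to 10.2 between other K562 replicates and 1.33 to 1.48 in HEL. Genes were kept with filterByExpr (minimum count 10, minimum total 15) and tested with edgeR 4.0.16 in R 4.3.3 (TMM, quasi-likelihood test, Benjamini-Hochberg over all genes, threshold 0.05), all K562 groups in 1 fit and HEL in another. SE values were derived from the F statistic. The biological coefficient of variation was 6.34% in K562 and 1.83% in HEL.

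The 7 enzymes, the 56 other pathway genes and the tests were chosen with earlier results of these data known. Named are the 7 enzymes, the targeted genes, SREBF2 and INSIG1, listed genes called with a log2 change of 0.5 or more in size, and the 5 genes with the highest Pearson r (log2 of CPM plus 1, centred within each line). PMVK and SOAT1 in the DOT1L KO, APOE in the ENL KO, and LIPA, APOE and ABCA1 in HEL were named after seeing their values. So were MSMO1 in the direct comparison of the knockouts, and TFRC. Some listed genes are counted in the lists but not reported here. Alternatives were DESeq2 1.42.0, upper-quartile and library-size scaling, no low-count filter, only the compared groups, a replicate block, a minimum fold change, leaving out each library and, chosen after seeing the data, a fit of the 2 knockouts without the controls. Promoter sequences are from RefSeq on GRCh38.p14 and were searched with Python.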

Additional observations from a re-analysis of the deposited data

Results flagged for a closer look

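For 6 of the 7 enzymes, the log2 change after DOT1L depletion differed between HEL and K562 in a test of the difference itself (the interaction in edgeR's quasi-likelihood test over 9 libraries). The HEL change minus the K562 change was 0.99 for FDFT1, 0.84 for LSS, 0.76 for DHCR7, 0.68 for HMGCS1, 0.44 for IDI1 and 0.37 for CYP51A1. The LSS value rests on 111 to 135 reads in each HEL library. In each case the decrease was larger in the K562 knockout, or, for LSS, was called there alone.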

How the results depend on the processing

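The number of the 7 enzymes called was 7 for DOT1L KO, 7 for ENL KO, 6 for DOT1L KO against ENL KO, 6 for HEL and 6 for the interaction. When a log2 change of at least 0.5 in size was also required, these were 6 for DOT1L KO, 3 for ENL KO, 2 for DOT1L KO against ENL KO and 1 for HEL. The share of all tested genes past both limits was not computed, so these stricter counts have no background beside them. In the same order, leaving out each library in turn gave 7 to 7, 6 to 7, 6 to 6, 6 to 6 and 6 to 7 enzymes, with a lone remaining library assumed to vary like the other groups. The deviations of same-numbered K562 libraries correlated at 0.0721 to 0.435, over 0.1 in 5 of 7 pairs, those of differently numbered ones at -0.356 to 0.229, over 0.1 in 3 of 14, and those of same-numbered HEL libraries at -0.00692. The numbers were not taken to pair the samples, because the labels name no shared culture or day and not every same-numbered pair passed 0.1, but the K562 values leave a partial pairing possible. With the replicate number as a block the counts were 7, 7, 6, 6 and 7, the added call being SQLE in the interaction (-0.16, edgeR adjusted p 0.00207). With a library left out, the log2 fold change of LSS in HEL ranged from -0.11 (without control 2) to 0.18 (without control 1) and was -0.05 without KD 2, none of these past the test. The sterol element core was upstream of 0 of the 5 matched genes exactly and of 2 with 1 mismatch. Other changes of call, for SQLE, LSS and DHCR7, stand beside their results, and the cause of each was not tested. All 35 values of the enzymes kept their direction and call under DESeq2 and without the low-count filter. A fit of the 2 knockouts without the controls, chosen after seeing the data, also had 6 enzymes lower in the DOT1L KO. The few reads of LSS limit what HEL can show for it.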
